A study of Mus musculus with 6 samples.

Results

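The miRNAs described here are the guide-strand (5p) products of the mouse miR-15, miR-16, miR-195, miR-322, miR-497 and miR-503 hairpins, which share one seed or nearly share it. They were taken by name from the array, as every mouse miRNA with one of those names, any letter after it and a 5p arm. This rule used no measured value, but it was chosen with earlier results of these data known. The array held 7 such miRNAs among 1247 mouse miRNAs: mmu-miR-15a-5p, mmu-miR-15b-5p, mmu-miR-16-5p, mmu-miR-195a-5p, mmu-miR-322-5p, mmu-miR-497-5p and mmu-miR-503-5p, written without the species prefix from here on. All 7 were detected on all 6 arrays and were among the 299 miRNAs tested.

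The study measured miRNA in 3T3-L1 cells, a mouse embryonic fibroblast line that turns into fat cells, on day 8 of adipogenic differentiation. The 2 IL-6 samples had received recombinant interleukin-6 (IL-6), an inflammatory cytokine that contracting muscle also releases, at 1 ng/ml from the induction of differentiation, with medium renewed every 24 h, and the 4 control samples were not treated. All 6 were induced for 3 days with rosiglitazone and insulin (2 µmol/l each), dexamethasone (1 µmol/l) and isobutyl-methylxanthine (0.5 mmol/l), then kept for 3 days with insulin and for 2 days in serum medium alone. Each was read on its own array of 1 slide, so the number of arrays limits the precision, and since nothing in the labels says that the samples of a group came from separate cultures, the p-values speak of the scatter among these arrays, part or all of which may be technical.

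A miRNA pairs with target mRNAs mainly through its seed, bases 2 to 8 from its 5′ end, so miRNAs with one seed can repress overlapping sets of mRNAs. The miR-15 and miR-16 family is known for holding back the cell cycle, with cyclins, cyclin-dependent kinases and the survival factor Bcl2 among its targets, and miR-16 is often used as a reference in miRNA measurements. The miR-322 and miR-503 genes are known from muscle cells, where they rise as cells leave the cycle and differentiate. 3T3-L1 cells divide again soon after induction and then stop dividing as they fill with fat.

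The mature sequences show what the members share and how the array told them apart. They are RefSeq's, on build GRCm38.p6, 5′ to 3′, with the seed in capitals, and the array's miR-497-5p was matched to RefSeq's miR-497a-5p, in which the letters of both of its probes were found.
miR-15a-5p: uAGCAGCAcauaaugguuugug
miR-15b-5p: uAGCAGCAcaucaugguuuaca
miR-16-5p: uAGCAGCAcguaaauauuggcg
miR-195a-5p: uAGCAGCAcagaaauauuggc
miR-322-5p: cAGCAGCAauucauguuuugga
miR-497-5p: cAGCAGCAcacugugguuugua
miR-503-5p: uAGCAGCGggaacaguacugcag
The seed was identical in 6 of the 7. In miR-503-5p the last base of the seed differed from miR-16-5p by the substitution A8G, with positions counted from 1 at the 5′ end of miR-16-5p. From base 9 onwards the members diverged. miR-195a-5p stayed closest to miR-16-5p, with 11 of 13 compared bases identical and the substitutions G10A and U11G, and miR-15a-5p and miR-15b-5p shared 10 of 14. miR-497-5p and miR-16-5p shared 4 of 14.

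These 7 miRNAs come from 8 hairpins at 4 places in the genome, each of which holds a pair of hairpins close together. On chromosome 14, miR-15a-5p (chr14:61632075-61632096, minus strand) and 1 copy of miR-16-5p (chr14:61631936-61631957) lie within Dleu2, a long noncoding RNA gene, with 54 bases between their hairpins. On chromosome 3, miR-15b-5p (chr3:69009775-69009796, plus strand) and the other copy of miR-16-5p (chr3:69009918-69009939) lie within Smc4, which encodes a subunit of the condensin complex that compacts chromosomes, 66 bases apart. On chromosome 11, miR-497-5p (chr11:70234730-70234751, plus strand) and miR-195a-5p (chr11:70235062-70235082) lie 241 bases apart in no other gene of the table. On the X chromosome, miR-503-5p (chrX:53054027-53054049, minus strand) and miR-322-5p (chrX:53054306-53054327) lie within the long noncoding RNA gene C430049B03Rik, 200 bases apart. Since both copies of miR-16-5p give the same mature sequence, its signal does not tell the chromosome 14 locus from the chromosome 3 locus.

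Each member had 2 probes of 20 spots per array, and every probe ended at the 3′ end of its miRNA, where the family differs. The probes of the pair that is most alike are shown because they cover most of the seed as well as the distinguishing bases.
miR-16-5p probe: cgccaatatttacgtgct
miR-195a-5p probe: gccaatatttctgtgctgc
The miR-16-5p probe shown reads bases 5 to 22, with 4 seed bases, and that of miR-195a-5p reads bases 3 to 21, with 6 seed bases. The shorter miR-503-5p probe, of 15 bases, covered no seed base. In ungapped comparison the shorter miR-195a-5p probe had 2 mismatches to miR-16-5p. For the shorter probe of each of the other members, the closest other member was 3 to 7 mismatches away. Signal of miR-16-5p on the miR-195a-5p probes was not tested.

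Lists of known miRNAs were used to look for signs of other cell types. They do not show how far the cells had become fat cells, since no sample from before differentiation was measured. Of 7 miRNAs listed for adipocytes and mesenchymal cells, 7 were detected on all 6 arrays, and of 19 on the array for muscle, blood cells, neurons, endothelium, liver and epithelium, 0 were detected on any array. The 75th percentile of signal over the 502 probes detected everywhere, by which each array was scaled, was 440.03 and 369 intensity units on the IL-6 arrays and between 248 and 396 on the control arrays. All the controls lay in row 1 of the slide and both IL-6 arrays in row 2, so slide row and treatment cannot be told apart. Columns 3 and 4 held 1 array of each group, IL-6 1 with control 3 and IL-6 2 with control 4.

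No member changed with IL-6 past the threshold. Of the 7, 0 were higher and 0 lower at a Benjamini-Hochberg adjusted p under 0.05 (limma over 299 miRNAs), where 0.334% of all tested miRNAs were called higher and 0% lower. Before adjustment, 0 members had a p under 0.05 in either direction, against 10.7% higher and 12% lower over all tested miRNAs. The differences, IL-6 minus control on the log2 scale of scaled intensity, ran from -0.15 to 0.19 with a median of -0.11, beside a median of -0.016 over all tested miRNAs. The sign of so small a median depended on the scaling. Here 6 of 7 members lay below 0, as against 55.2% of all tested miRNAs. The number was 0 of 7 without scaling and 1 of 7 with each array scaled by its miR-16-5p, itself 0 by construction. It was 4 of 7 with the file's own total signals and 7 of 7 with normexp background correction. The median over all tested miRNAs moved too, to 0.27, 0.10, 0.070 and -0.047 in that order. The family's median minus that of all tested miRNAs was -0.080, -0.082, -0.080 and -0.048. The 95% confidence intervals reached from -0.55 for miR-15b-5p to 0.45 for miR-497-5p, so a fall to 0.682 times the control level or a rise to 1.36 times was not excluded.

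**Figure D1:**
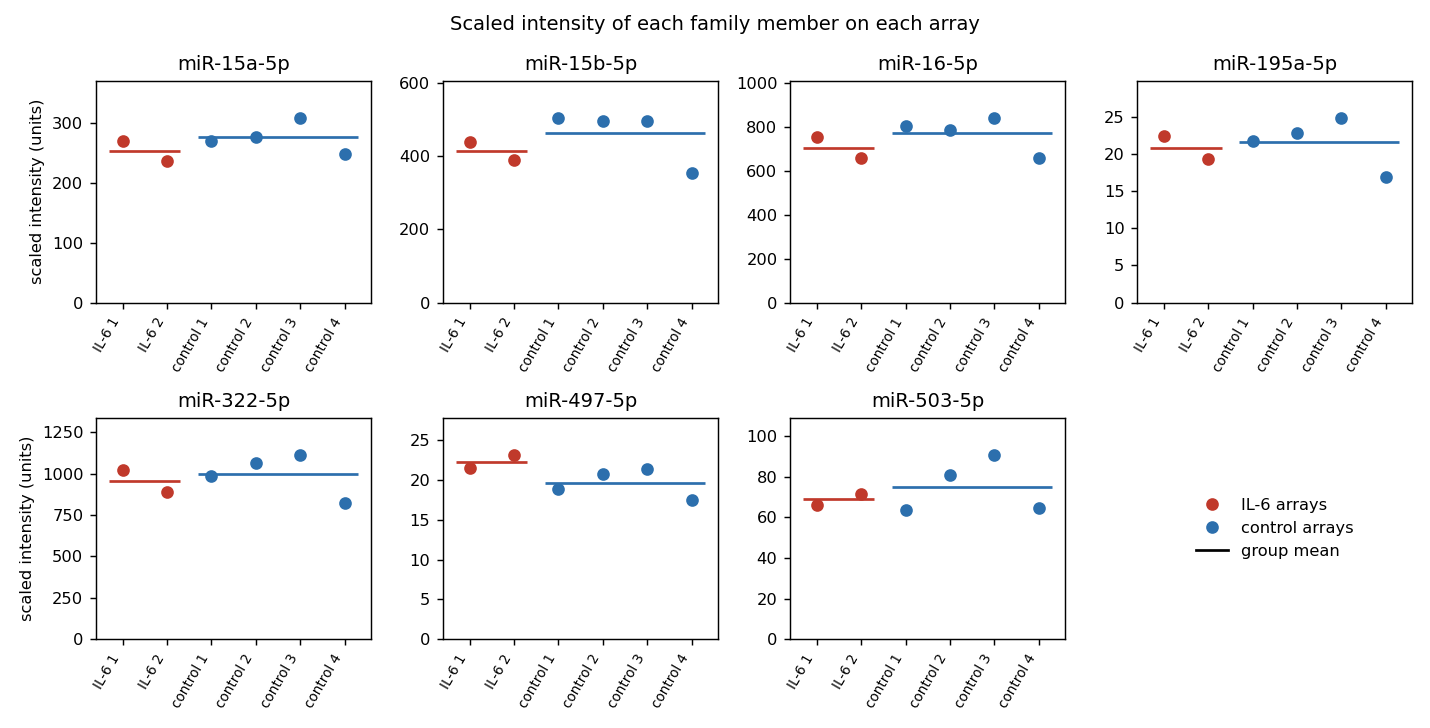
Scaled intensity (units, linear axis from 0, a separate scale for each miRNA) of the 7 members on each array, with IL-6 arrays in red left of control arrays in blue and a line at each group's mean. The control 4 point lay below the other controls in each panel except that of miR-503-5p, and with this scaling the IL-6 points lay above all controls for miR-497-5p alone.

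On chromosome 14, miR-15a-5p, which targets Bcl2 and cyclins, had scaled intensities of 269 and 237 on IL-6 arrays 1 and 2, against 270.0, 277, 308 and 248 on control arrays 1 to 4. The IL-6 2 array was the lowest of the 6 and IL-6 1 lay within the control range. The log2 levels averaged 7.98 ± 0.13 with IL-6 (SD, n = 2) and 8.10 ± 0.13 in controls (SD, n = 4), a difference of -0.12 ± 0.10 SE (limma adjusted p = 0.53). Its interval ran from -0.38 to 0.13.

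miR-16-5p, the member made at both the chromosome 14 and the chromosome 3 locus, had 755 and 656 units on the IL-6 arrays, against 806, 784, 840.3 and 656 on control arrays 1 to 4. IL-6 2 and control 4, which share slide column 4, were lowest and nearly equal, and the groups overlapped. The levels averaged 9.46 ± 0.14 with IL-6 (SD, n = 2) and 9.59 ± 0.16 in controls (SD, n = 4), a difference of -0.13 ± 0.12 SE (limma adjusted p = 0.582).

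Its chromosome 3 neighbour miR-15b-5p had 439.7 and 389 units on the IL-6 arrays, against 504, 496, 495 and 354 on control arrays 1 to 4. Both IL-6 arrays lay between control 4 and the other 3 controls, which were close to each other. The levels averaged 8.69 ± 0.12 with IL-6 (SD, n = 2) and 8.84 ± 0.25 in controls (SD, n = 4), and the difference of -0.15 ± 0.17 SE did not pass (limma adjusted p = 0.657). Control 4 set this spread: without it the difference was -0.28 and the adjusted p 0.0662 (limma), the smallest of any member under any setting tried. Leaving out control 4 changed the whole table. Of 300 tested miRNAs, 23 were then called higher and 8 lower, against 1 and 0 of 299 with all arrays.

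The X-linked members also overlapped between groups. miR-322-5p, the mouse counterpart of human miR-424, had 1022 and 887 units on the IL-6 arrays, against 988, 1063, 1115 and 824 on control arrays 1 to 4, and both IL-6 arrays lay within the control range. Its levels averaged 9.89 ± 0.14 with IL-6 (SD, n = 2) and 9.95 ± 0.19 in controls (SD, n = 4), a difference of -0.058 ± 0.14 SE (limma adjusted p = 0.863). Its hairpin neighbour miR-503-5p, whose seed ends in another base, had 66.0 and 71.6 units on the IL-6 arrays, against 63.5, 80.6, 90.8 and 64.4 on control arrays 1 to 4. For this miRNA the controls themselves fell into a lower and a higher pair, with both IL-6 arrays between them. The levels averaged 6.10 ± 0.08 with IL-6 (SD, n = 2) and 6.21 ± 0.25 in controls (SD, n = 4), and the difference was -0.11 ± 0.17 SE (limma adjusted p = 0.759).

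The chromosome 11 members were dim, close above background. miR-497-5p had 21.5 and 23.2 units on the IL-6 arrays, against 18.8, 20.8, 21.4 and 17.4 on control arrays 1 to 4, so both IL-6 arrays lay above all controls, IL-6 1 only just above control 3. It was 1 of 7 members with separate groups in that direction and 0 of 7 had them in the other, where 13% of all tested miRNAs had IL-6 above and 21.7% had IL-6 below all controls. The levels averaged 4.48 ± 0.08 with IL-6 (SD, n = 2) and 4.29 ± 0.14 in controls (SD, n = 4), and the difference of 0.19 ± 0.10 SE, 1.14-fold, did not pass (limma adjusted p = 0.313). The difference was larger under some settings, at 0.48 without scaling, 0.32 with scaling by miR-16-5p and 0.29 with the file's own total signals. The median over all tested miRNAs also rose under these, to 0.27, 0.10 and 0.070, and miR-497-5p did not pass (lowest limma adjusted p 0.189). With normexp background correction the difference was -0.055, and without slide column 4 it was 0.066. The groups were no longer separate under either of these, with quantile scaling, with the percentile taken over all mouse probes, with the brightest probe or on leaving out any 1 control array.

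Its neighbour miR-195a-5p had 22.4 and 19.3 units on the IL-6 arrays, against 21.8, 22.9, 24.9 and 16.9 on control arrays 1 to 4. The IL-6 arrays lay inside the control range. The levels averaged 4.38 ± 0.15 with IL-6 (SD, n = 2) and 4.42 ± 0.24 in controls (SD, n = 4), a difference of -0.042 ± 0.17 SE (limma adjusted p = 0.916), and its sign turned under 6 of 20 alternative settings. 1 of its probes was detected on 2 of the 6 arrays only (IL-6 1 and control 2), and the spots of that probe varied most of all family probes, with a median coefficient of variation of 17.6% within an array, against 3.80% for the steadiest probe, one of miR-16-5p.

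The longer probe of each member holds the whole of the shorter, so the 2 probes do not measure a miRNA independently. For 7 of 7 members both probes differed in the same direction over all arrays, and their differences lay between 0.0061 and 0.042 apart on the log2 scale. For miR-15b-5p they were -0.16 and -0.12, and for miR-497-5p they were 0.20 and 0.19. Neither miR-497-5p probe by itself separated the groups, and within slide column 3 they differed by 0.13 and -0.080. No spot was saturated on any array.

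**Figure D2:**
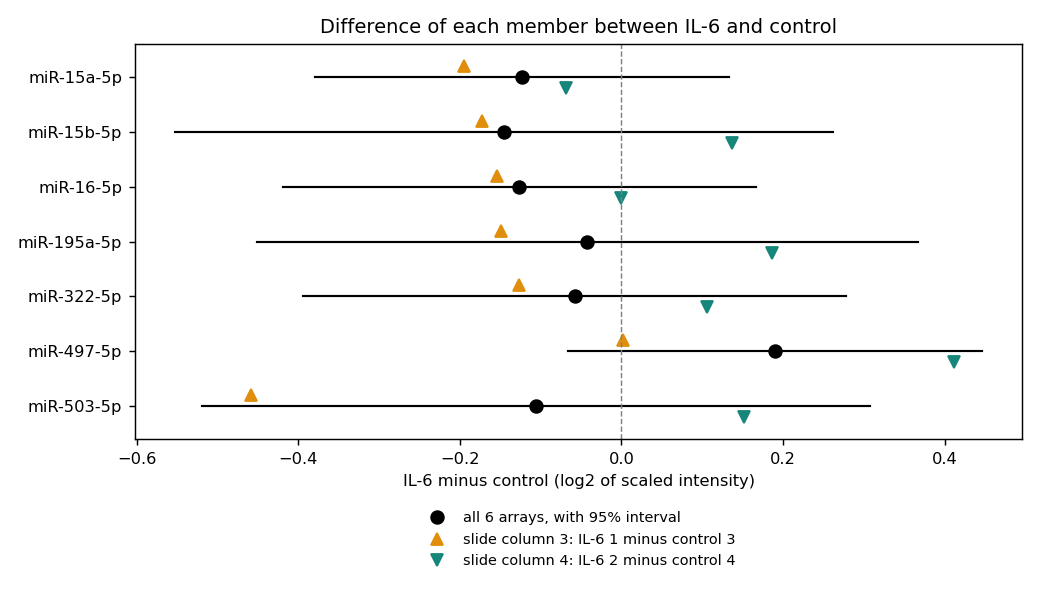
IL-6 minus control for each member on the log2 scale of scaled intensity: black points give the value over all 6 arrays with its 95% confidence interval, orange triangles the value within slide column 3 and green triangles that within column 4. Every interval includes 0, and the column 4 value lies right of the column 3 value for 7 of 7 members.

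Within the slide columns the members did not keep a direction. In column 3 the difference between IL-6 1 and control 3 was below 0 for 6 of 7 members, with a median of -0.15, and in column 4 the difference between IL-6 2 and control 4 was above 0 for 6 of 7, with a median of 0.14. Over all tested miRNAs the medians were -0.034 and -0.0054. miR-16-5p counts as above 0 in column 4 at only 4.2e-05, with its probes at 0.015 and -0.0072, so its direction there is not settled. miR-503-5p differed by -0.46 in column 3 and 0.15 in column 4, miR-322-5p by -0.13 and 0.11, and miR-15b-5p by -0.17 and 0.14. For miR-15a-5p they were -0.19 and -0.068, both below 0, and for miR-497-5p 0.0022 and 0.41, both above 0. With slide column as a block in limma the family's median was -0.017, beside -0.016 over all tested miRNAs, and 0 of 7 members passed. Of all 299 tested miRNAs, 0 were called higher and 0 lower with this block. Only columns 3 and 4 hold both groups, so this comparison rests on their arrays.

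Most members shared a pattern from array to array, in which the family means of both IL-6 arrays lay between those of the highest and the lowest controls. Each member's log2 level was set against its own mean over the 6 arrays. On control 4, 7 of 7 members lay below their own mean, by 0.11 to 0.32, while the median of all tested miRNAs on that array was -0.0095. On control 3 and on control 2, 7 of 7 lay above it, with family means of 0.19 and 0.10. On control 1 they split, from -0.18 for miR-503-5p and -0.12 for miR-497-5p to 0.19 for miR-15b-5p. The IL-6 arrays fell in between, with family means of 0.015 for IL-6 1 and -0.093 for IL-6 2, on which 5 of 7 and 1 of 7 members lay above their own mean. The one on IL-6 2 was miR-497-5p, at 0.18. The arrays of slide column 4 were thus the lowest for the family in both groups, and the part of slide position, scaling or the cells in this was not tested.

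**Figure D3:**
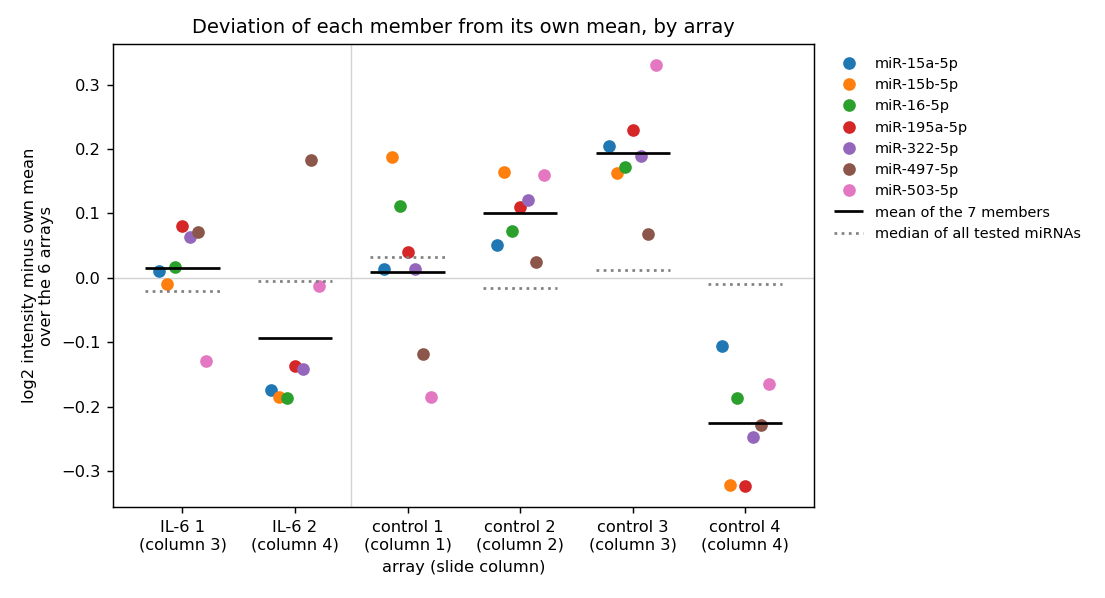
Deviation of each member's log2 intensity from its own mean over the 6 arrays (vertical axis), by array and slide column, IL-6 arrays left of the controls. Black lines give the mean of the 7 members and dotted lines the median of the 299 tested miRNAs. All points lie below 0 on control 4 and above 0 on controls 2 and 3.

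How closely the members tracked each other was measured as the root mean square distance of a member's centred log2 values from the family's mean profile over the 6 arrays. It was smallest for miR-322-5p, at 0.030, and between 0.055 and 0.096 for miR-195a-5p, miR-16-5p, miR-15a-5p and miR-15b-5p. The distances were largest for miR-503-5p (0.12) and miR-497-5p. The other tested miRNAs had a median distance of 0.17, and a flat profile would lie 0.134 away, nearer than miR-497-5p (0.140). Since each member is itself part of that mean profile, its distance is lowered by construction.

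Outside the family, the 5 tested miRNAs nearest to this profile were miR-193b-3p (distance 0.055), miR-199a-3p (0.058), miR-146b-5p (0.061), miR-674-3p (0.062) and miR-598-3p (0.066), over the same 6 arrays. miR-193b-3p, a miRNA tied to brown fat, had 230.1 and 236 units on the IL-6 arrays, against 254, 263, 283 and 219 on control arrays 1 to 4. Control 4 was lowest and control 3 highest, as for miR-16-5p, miR-195a-5p and miR-322-5p. The likeness rests on arrays that share a slide and a scaling, and is a description.

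Loci were compared through within-array log2 ratios, in which the scaling cancels for signals above the floor. There were 21 pairs of members, 6 of them with miR-503-5p, whose seed differs by a base, each tested by an exact two-sided permutation over all 15 splits of the 6 arrays into 4 and 2, in which no p can fall below 0.0667. The smallest p after Benjamini-Hochberg adjustment over the pairs was 0.56, and the median size of the difference was 0.068. Among the 15 pairs without miR-497-5p the largest difference was -0.103, for miR-15b-5p over miR-195a-5p, and among the 6 with it the sizes ran from 0.23 to 0.34.

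miR-16-5p over miR-497-5p had log2 ratios of 5.14 and 4.82 on the IL-6 arrays, against 5.42, 5.24, 5.29 and 5.23 on control arrays 1 to 4, a difference of -0.32 (exact permutation p = 0.0667, the smallest possible, adjusted 0.56). The IL-6 arrays lay below all controls, and the same held for miR-15a-5p over miR-497-5p, with a difference of -0.31 at the same p. Both rested in large part on IL-6 2: without it they were -0.16 and -0.17, and without slide column 4 they were -0.18 and -0.16. The third pair with separate groups was miR-497-5p over miR-503-5p, at 0.30 (exact permutation p = 0.133, adjusted 0.56). These 3 of 21 pairs all hold miR-497-5p, whose signal lay close to background. The share of separate groups over all pairs of tested miRNAs was not computed, so the count does not show a trait of the family.

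The pairs of neighbours in one locus had these differences. For the X-linked pair, miR-322-5p over miR-503-5p, the difference was 0.048 (exact permutation p = 0.867), with 0.33 in slide column 3 and -0.045 in column 4. For miR-15a-5p over miR-16-5p it was 0.0031 (exact permutation p = 1), for miR-15b-5p over miR-16-5p -0.019 (exact permutation p = 0.933), and for the chromosome 11 pair, miR-195a-5p over miR-497-5p, -0.23 (exact permutation p = 0.2). With 2 IL-6 arrays these p-values do not show that the loci act alike.

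**Figure D4:**
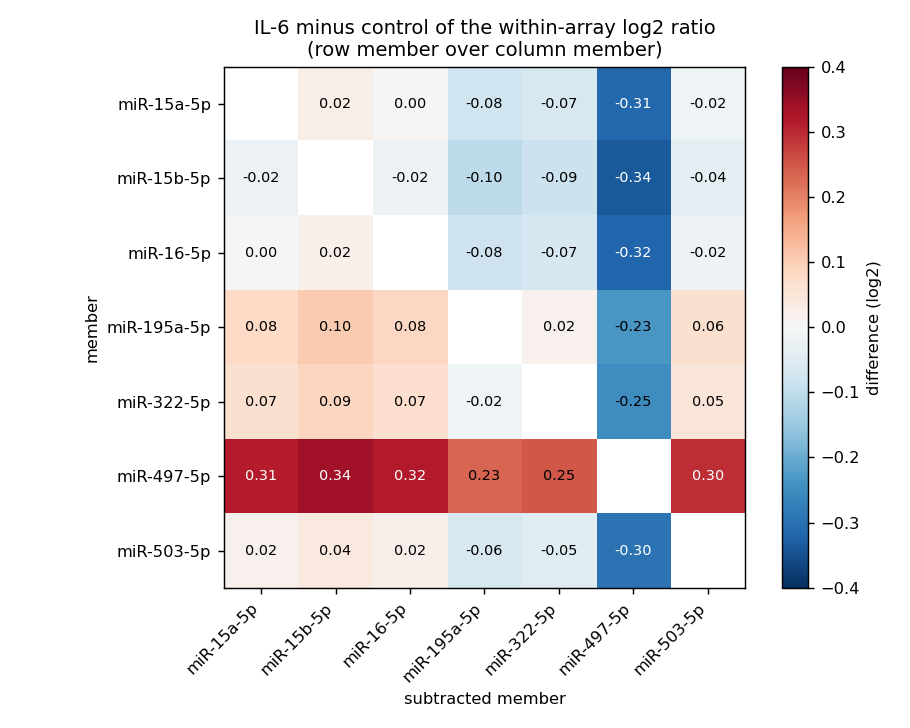
IL-6 minus control of the within-array log2 ratio of the row member over the column member, for all 21 pairs (each shown in both directions with opposite sign). The row and column of miR-497-5p hold all values beyond 0.20 in size, and the remaining cells lie between -0.103 and 0.103.

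As a candidate reference, miR-16-5p was not among the steadiest miRNAs here. Its SD over the 6 arrays was 0.15 on the log2 scale after scaling, rank 171 of 299 from the steadiest, beside a median SD of 0.14 over all tested miRNAs. Before scaling the SD was 0.27 and the rank 101. The scaled SD was taken after low values were raised to the floor, so miRNAs lying at the floor rank as steady. The unscaled SD was taken without that floor, so the scaled and unscaled ranks are not on the same footing. The unscaled intensity of miR-16-5p was 930.3 and 678 units on the IL-6 arrays, against 782, 869, 584 and 630.4 on control arrays 1 to 4. When each array was scaled by miR-16-5p in place of the percentile, the median difference over all tested miRNAs moved to 0.10, and the family's to 0.020. Among the members the scaled SD ran from 0.13 for miR-15a-5p, rank 123, to 0.21 for miR-15b-5p, rank 234.

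The opposite arms of the same hairpins, the 3p strands that are mostly discarded when the guide strand is loaded, were mostly below detection. Of 8 on the array, 7 were detected on no array, with scaled intensities of at most 4.11 units, and 1 was tested. That arm, miR-322-3p, had 22.0 and 22.0 units on the IL-6 arrays, against 24.8, 24.8, 23.2 and 21.7 on control arrays 1 to 4. The difference of -0.10 ± 0.08 SE did not pass (limma adjusted p = 0.49), and the groups overlapped.

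The hairpins of miR-322 and miR-503 lie in an X-linked cluster with those of miR-351, miR-542 and miR-450. Of 11 listed products of these hairpins, miR-322-3p and miR-503-3p included, 8 were tested and 0 rose or fell past the threshold (limma adjusted p between 0.251 and 0.781). The median difference was -0.14, with 6 below 0 and 2 above. Over all tested miRNAs the median was -0.016, and 55.2% lay below 0. The 2 above include miR-450a-2-3p, which was detected on 2 of the 4 control arrays and was tested only because both IL-6 arrays detected it. Its difference rests on control values at the floor, so the median and the counts are a description only. miR-542-5p had 13.1 and 15.1 units on the IL-6 arrays, against 16.8, 15.8, 19.0 and 15.2 on control arrays 1 to 4, so both IL-6 arrays lay below all controls (-0.24 ± 0.11 SE, limma adjusted p = 0.251). miR-542-3p, from the other arm of that hairpin, also had separate groups, with 40.8 and 40.8 units on the IL-6 arrays, against 42.8, 44.9, 53.9 and 43.0 on control arrays 1 to 4. These were 2 of 8, where 21.7% of all tested miRNAs had IL-6 below all controls, and control 3 was highest for both.

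Of the other listed X-linked products, miR-450a-5p differed by -0.094 ± 0.08 SE, miR-450b-3p by -0.20 ± 0.15 SE, miR-351-3p by -0.23 ± 0.20 SE and miR-351-5p by 0.075 ± 0.13 SE. miR-450a-2-3p had 12.7 and 10.9 units on the IL-6 arrays, against 5.58, 5.03, 9.28 and 12.6 on control arrays 1 to 4, of which controls 1 and 2 lay below the floor of 6.25 units, so no difference is given. The groups overlapped for each of these 5. The remaining 3 products, miR-450b-5p, miR-450a-1-3p and miR-503-3p, were detected on no array.

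Relatives were sought by sequence, as every other miRNA on the array with bases 2 to 7 of miR-16-5p among its first 8 bases, which could be asked of the 1019 of 1247 array miRNAs matched to RefSeq. There were 6, and 4 of them carry the family's whole seed. They are shown because only the letters after the seed set them apart from the detected members.
miR-195b: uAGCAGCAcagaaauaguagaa
miR-6342: cAGCAGCAaucuggucuuugag
miR-6353: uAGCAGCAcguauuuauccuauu
miR-6419: cAGCAGCAaucugacacaugga
These 4 were detected on 0 IL-6 and 0 control arrays, and their background-subtracted intensities lay between -2.74 and 0.513 units. The other 2 relatives, miR-103-3p and miR-107-3p, are insulin sensitivity miRNAs in which the same letters begin at base 1, which makes another seed.
miR-103-3p: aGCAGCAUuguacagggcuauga
miR-107-3p: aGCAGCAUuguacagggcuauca
miR-103-3p had 1984 and 1963 units on the IL-6 arrays, against 2132, 2217, 2231 and 1928 on control arrays 1 to 4, a difference of -0.11 ± 0.08 SE (limma adjusted p = 0.455). miR-107-3p differed by -0.14 ± 0.08 SE (limma adjusted p = 0.37), with control 3 highest for both.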

How the data were processed

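RNA (100 ng a sample, RNA integrity numbers between 9.5 and 10.0) was labelled with Cyanine 3 for Agilent mouse miRNA arrays of 1 colour, per the labels' protocols. Agilent Feature Extraction 10.10.1.1 read the spots, per the file headers, and the deposited intensity values had a fitted spatial trend subtracted, with no surrogates and no scaling between arrays. The deposited series table held the scanner's total probe signal as linear intensity (largest difference 0). Its column medians were 0.0727 and 0.117 for IL-6 1 and 2 and 0.0937, 0.104, 0.0777 and 0.0781 for controls 1 to 4. Its scale was thus linear, uncentred and without a direction to settle.

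From these values, uneven and outlying spots and 2164 control spots were left out, and the remaining spots of each of 3105 mouse probes were averaged. Detection of a probe required 0.5 or more of its spots to be flagged well above background, and detection of a miRNA required 1 such probe. Arrays were scaled by the 75th percentile of 502 probes detected on all arrays, times the mean percentile. Probes of a miRNA were averaged, values below 6.25 were raised to that floor, and log2 was taken. miRNAs detected on all 4 control or both IL-6 arrays were tested (299) with limma 3.58.1 in R 4.3.3, with a mean trend and no covariates, two-sided, with Benjamini-Hochberg adjustment. No set test was run. Alternatives changed the background correction, scaling, probe summary, filter, floor, trend, block or arrays. The fit was tested on simulated data.

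The text names all members, the opposite arms of their hairpins, the listed cluster partners and relatives, and the 5 nearest profiles. Members, lists and tests were chosen with earlier results of these data known. Sequences and coordinates are RefSeq's (GRCm38.p6) and probes the array's. Replicate numbers do not pair the samples in the labels.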

Additional observations from a re-analysis of the deposited data

Results flagged for a closer look

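Among 28 sets of control values examined (7 members and 21 pairs), 3 held an array far from the other controls by Dixon's ratio. Chance alone marks about 1 in 20 of independent sets. The pairs are formed from the same 7 members on the same arrays, so the sets are not independent and the count cannot be judged against that rate. The miR-15b-5p level on control 4 was 8.47 (log2), with a gap to the next control of 0.951 of the control range. The ratio of miR-15a-5p over miR-195a-5p was 3.87 on control 4, with a gap of 0.881 of the range. The ratio of miR-15a-5p over miR-497-5p was 3.74 on control 2, with a gap of 0.873 of the range. No explanation of these was tested.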

How the results depend on the processing

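Over 20 alternatives, 0 of 140 member values passed the threshold (lowest limma adjusted p 0.0662), 121 kept their direction, 18 turned it and 1 (miR-16-5p scaled by itself) was 0 by construction. The calls over all tested miRNAs varied with the setting. They were 34 of 299 higher and 0 lower without scaling, and 23 of 300 higher and 8 lower without control 4. With normexp correction, scaling by miR-16-5p, either block or without control 3, 0 tested miRNAs were called in either direction. The lack of calls under those settings is thus not particular to the family. Without scaling, under which all tested miRNAs had a median of 0.27, the family's median was 0.19, and the values were 0.17 for miR-15a-5p, 0.15 for miR-15b-5p, 0.17 for miR-16-5p, 0.25 for miR-195a-5p, 0.24 for miR-322-5p and 0.19 for miR-503-5p. With scaling by miR-16-5p they were 0.0031 for miR-15a-5p, 0.084 for miR-195a-5p, 0.068 for miR-322-5p and 0.020 for miR-503-5p. With the scanner's total miRNA signal, and with the series table, miR-195a-5p was at 0.054 and miR-322-5p at 0.038. miR-497-5p kept its direction under these settings, at 0.48 without scaling, 0.32 with scaling by miR-16-5p and 0.29 with the scanner's total signal or the series table. With slide column as a block miR-195a-5p was at 0.019, and with normexp correction miR-497-5p was at -0.055. The percentile over all mouse probes moved the median of all tested miRNAs to -0.13 and the family's to -0.22. Relative to all tested miRNAs, the family's median lay between -0.15 and 0.015 over all settings. Leaving out 1 array gave -0.22 to -0.031 for miR-15a-5p, -0.28 to -0.057 for miR-15b-5p, -0.23 to -0.025 for miR-16-5p, -0.16 to 0.067 for miR-195a-5p, -0.16 to 0.044 for miR-322-5p, 0.13 to 0.25 for miR-497-5p and -0.18 to -0.048 for miR-503-5p, and a family median between -0.18 (without control 4) and -0.025 (without IL-6 2). A group left with 1 array was assumed to vary like the other. Pairs with separate groups, 3 of 21, numbered 6 with the brightest probe, 5 to 9 when any array but control 1 was left out, and 11 without slide column 4, which was chosen after seeing the data and where fewer arrays make separation easier. The share of pairs with separate groups over all tested miRNAs was not computed. The replicate block gave a family median of -0.11, with 0 calls among the members and 0 among all 299 tested miRNAs. The labels do not pair the replicate numbers, so they were not taken as pairs. Deviations from the group mean correlated at 0.058 and -0.34 for same-numbered arrays, and at 0.41 and 0.51 for arrays sharing slide columns 3 and 4. With 2 IL-6 arrays, the deviations of one are those of the other with the sign turned. These correlations are thus not independent and do not decide on a pairing by number or by column. Signals near background limit what can be said of miR-195a-5p and miR-497-5p. The causes of these shifts were not tested.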
